A study of Rattus norvegicus with 12 samples.

Results

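The interferon-stimulated antiviral genes followed here are Oasl, Isg15, Ifit2, Ifit3, Irf7, Stat2, Mx1, Mx2 and Rsad2. They were taken by gene name from the array annotation, which holds 11 probes for these 9 genes among 45598 probes in all. The samples were cultures of N27, an immortalised rat line labelled as dopaminergic neurons. In 7 cultures the voltage-dependent anion channel gene Vdac1 had been removed with CRISPR (KO 1 to KO 7), and 5 were wild type (WT 3, WT 5, WT 6, WT 7 and WT 8, numbered as in the sample titles). No drug, cytokine or virus is named for either group, and the sources used here do not say whether the knockout cultures derive from 1 clone. RNA was hybridised to 1-colour arrays, 1 array per culture. Whether the cultures were grown independently is not stated either, so the p-values rest on the spread among these cultures, which may be technical.

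Type I interferons bind the receptor pair IFNAR1 and IFNAR2, which activates the kinases JAK1 and TYK2. These phosphorylate STAT2, which acts with IRF9 at the interferon-stimulated response element in front of antiviral genes. Many cells keep a low level of these transcripts without infection, and sensors of RNA or DNA in the cytosol, mitochondrial nucleic acid included, can raise it.

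Values are log2 processed signal minus the array's 75th percentile, so 0 is the brightness that 75 percent of an array's spots stay below, and 1 unit is a doubling. Differences are knockout minus wild type. A probe was called where limma's adjusted p, over the 17871 probes that 5 or more of the 12 arrays showed well above background, was under 0.05. Each member is measured by 60-base probes. The sequences of 3 of them are shown because Oasl carries the called difference, and Isg15 and Irf7 stand for the 2 patterns among the knockout cultures described further on.
Oasl: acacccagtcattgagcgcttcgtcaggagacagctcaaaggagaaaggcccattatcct
Isg15: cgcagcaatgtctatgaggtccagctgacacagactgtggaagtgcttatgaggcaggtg
Irf7: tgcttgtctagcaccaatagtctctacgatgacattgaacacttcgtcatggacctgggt
The files place the Oasl probe at base 850 of its transcript and at chr12:42958314-42959155 of build rn4, a span of 842 bases for 60 letters, so the probe crosses at least 1 intron. They place the Isg15 probe at base 408 (chr5:173034674-173034733) and the Irf7 probe at base 1699 (chr1:201456889-201456948). All 3 lie on the minus strand, going by the order of the file coordinates, which were not checked against a genome here.

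The arrays were spread over 3 slides, each with both genotypes. Slide 1 held KO 6, KO 7, WT 3 and WT 8, slide 2 held KO 1, KO 2, KO 3 and WT 5, and slide 3, scanned on another day, held KO 4, KO 5, WT 6 and WT 7. The 75th percentile of processed signal lay between 142.7 and 691.8 on knockout arrays and between 120.1 and 449.7 on wild-type arrays, and as log2 it averaged 8.24 ± 0.90 (SD, n = 7) and 8.0 ± 0.78 (SD, n = 5). Each of the 3 Vdac1 probes separated the genotypes without overlap, the knockout being lower, with differences of -1.23, -1.22 and -1.15 (limma adjusted p = 0.0560, 0.0422 and 0.0898), so transcript was still detected. Over all probes limma called 126 higher and 80 lower, 0.705% and 0.448%. Under quantile normalization it called 67 and 63, and with the percentile taken over probes well above background on all arrays 75 and 75. Of 15 dopaminergic genes on the array, Th and Aldh1a1 had a probe well above background on all 12 arrays, and 17 of the list's 28 probes were above it on none. The signals of all 28 probes, relative to the 75th percentile, were summed before taking log2, so bright probes weigh most. This log2 of the sum lay between -0.24 and 0.80 in knockout arrays and between -0.13 and 0.60 in wild-type arrays. Of 10 leukocyte genes, Cd68 and Cx3cr1 were well above background on all arrays and the other 13 of 15 probes, Ptprc and Aif1 among them, on none. For the leukocyte list the log2 of the sum over all 15 probes lay between -0.73 and 0.54 in knockout arrays and between -0.05 and 0.45 in wild-type arrays. Of 10 general neuron genes, 1 had a probe well above background on all arrays, and 12 of 17 probes were above it on none. For 6 fibroblast genes these counts were 2 genes and 2 of 7 probes, and for 4 endothelial genes 0 genes and 3 of 4 probes. Astrocyte and oligodendrocyte markers had no probe that could be tested. The part of other cells in the results was not tested.

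Oasl transcript was higher in the knockout cultures, and no other member passed the test. Of the 11 member probes 1 was called higher and 0 lower (0.705% of all probes were called higher), and 10 were not called. All 11 could be tested, and 9 were well above background on all 12 arrays. All 11 differences were positive, between 0.088 and 0.88, as were 54.4% of those over all probes, but 9 were positive without WT 3 or with normexp background correction, 8 among numbers 5 to 8 and 5 within slide 2. Their median was 0.52, beside 0.035 over all probes tested. At an unadjusted limma p under 0.05, 5 were higher and 0 lower, against 9.2% of all probes higher and 6.63% lower. The knockout and wild-type arrays did not overlap at 1 member probe, that of Oasl, as at 1.73% of all probes with the knockout higher. The members were chosen with earlier results of these data known, so these counts and the median are a description. In bulk cultures, a higher level in every cell and a high level in some cells cannot be told apart.

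**Figure D1:**
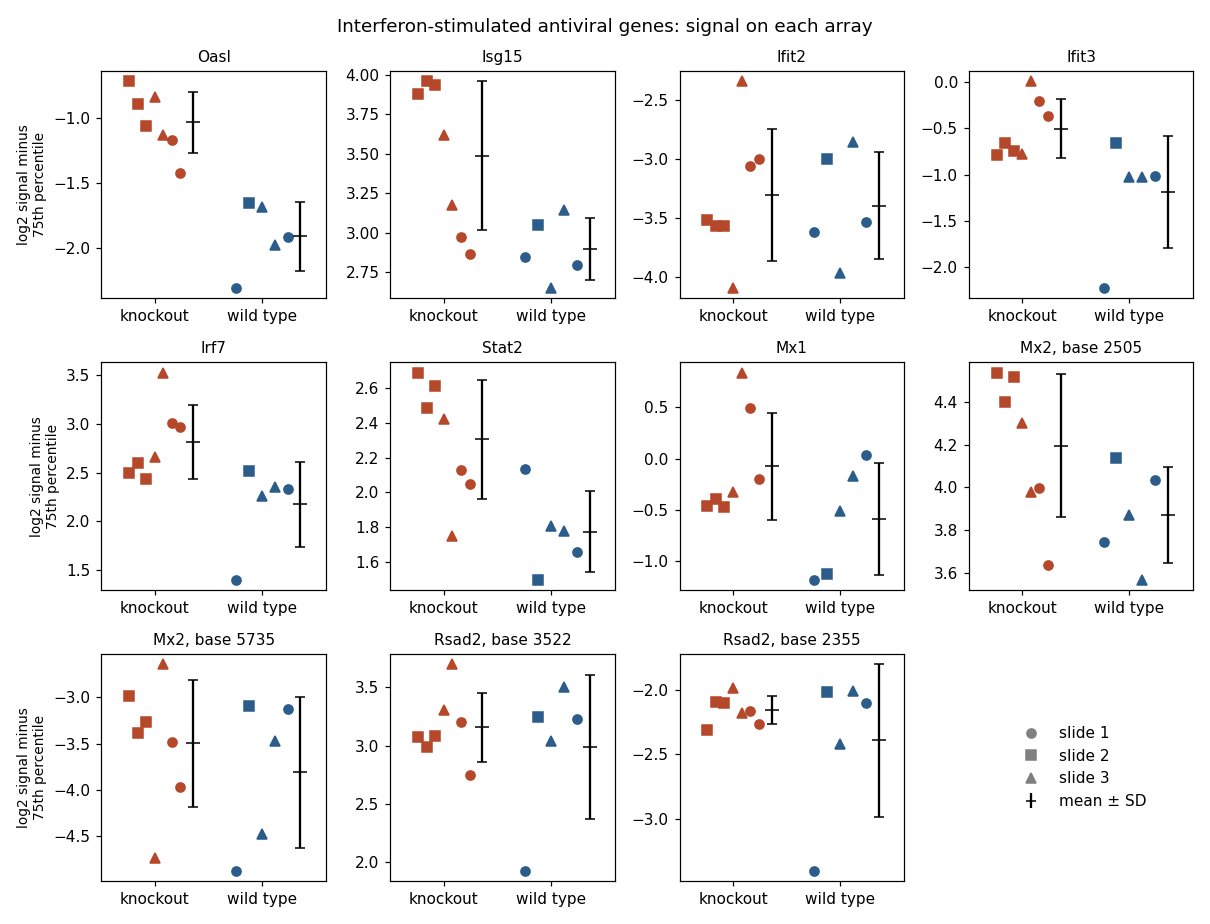
Log2 signal minus the array's 75th percentile (y axis, its own scale in each panel) for the 11 member probes, with the 7 knockout arrays at the left and the 5 wild-type arrays at the right of each panel. Symbols give the slide, and bars the mean ± SD. The groups separate fully for Oasl, and WT 3 is the lowest array in 7 panels.

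Oasl encodes a member of the oligoadenylate synthetase family. Its human counterpart binds the RNA sensor RIG-I and enhances its signal, and in mouse Oasl1 restrains the translation of Irf7. Oasl signal was -0.71, -0.89, -1.06 and -0.84 in KO 1 to KO 4 with -1.13, -1.17 and -1.42 in KO 5 to KO 7, against -2.31, -1.65, -1.68, -1.98 and -1.91 in WT 3, WT 5, WT 6, WT 7 and WT 8. Every knockout array lay above every wild-type array, and KO 7 came closest to the wild type. Knockout Oasl averaged -1.03 ± 0.24 (SD, n = 7) and wild-type Oasl -1.91 ± 0.26 (SD, n = 5), a difference of 0.88 (SE 0.16, 1.83-fold, limma adjusted p = 0.0285). Within slides 1, 2 and 3 the Oasl difference was 0.82, 0.77 and 0.85, and with slide as a block 0.81 (adjusted p = 0.0169, with 1.6% of all probes called higher). With each array's 75th percentile as a covariate it was 0.87 (adjusted p = 0.0389). The Oasl call was lost with normexp background correction (0.48, adjusted p = 0.338, with 0.118% of all probes called higher). That correction adds an offset of 50, which shrinks differences of dim probes, and the part of the offset in the loss was not tested. The processed Oasl signal ran between 67.6 and 373.0 on knockout arrays and between 30.5 and 143.0 on wild-type arrays. The call was also lost without KO 1, KO 2, KO 3, WT 5, WT 7 or WT 8, where the adjusted p reached at most 0.0862 and the difference lay between 0.82 and 0.94. It was lost as well with all 45598 probes tested, dim ones included (limma adjusted p = 0.321), and among numbers 5 to 8 (0.0925). The same held with each culture number as a block (0.355) and within slide 1 or slide 3 alone. Of 27 alternative fits 14 kept the Oasl call.

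Stat2 and Irf7 act upstream of the antiviral effectors. Stat2 is the STAT protein specific to type I and type III interferon signalling. Its signal was 2.69, 2.48, 2.61 and 2.42 in KO 1 to KO 4 with 1.75, 2.13 and 2.05 in KO 5 to KO 7, against 2.13, 1.5, 1.81, 1.78 and 1.66 in WT 3, WT 5, WT 6, WT 7 and WT 8. The first 4 knockout arrays lay above all wild-type arrays, and the other 3 lay among them. The Stat2 difference was 0.53 (SE 0.18, limma adjusted p = 0.171). Irf7, the transcription factor that amplifies interferon gene expression, had 2.5, 2.60, 2.44 and 2.66 in KO 1 to KO 4 with 3.53, 3.01 and 2.97 in KO 5 to KO 7, against 1.40, 2.51, 2.26, 2.35 and 2.33 for those same 5 wild-type arrays. Here KO 5 to KO 7 stood highest, and WT 3 stood below all other arrays. The Irf7 difference was 0.64 (SE 0.23, limma adjusted p = 0.188), and 0.45 without WT 3.

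Isg15 encodes a ubiquitin-like protein that is joined to other proteins during the antiviral response. It had 3.88, 3.96, 3.94 and 3.62 in KO 1 to KO 4 with 3.17, 2.97 and 2.87 in KO 5 to KO 7, against 2.84, 3.05, 2.65, 3.14 and 2.80 in WT 3, WT 5, WT 6, WT 7 and WT 8. KO 1 to KO 4 lay above every wild-type array, and KO 6 and KO 7 lay within the wild-type range. Knockout Isg15 averaged 3.49 ± 0.47 (SD, n = 7) and wild-type Isg15 2.90 ± 0.20 (SD, n = 5), a difference of 0.59 (SE 0.22, limma adjusted p = 0.206). Among numbers 5 to 8 alone the Isg15 difference was 0.10.

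Ifit2 and Ifit3 encode proteins with tetratricopeptide repeats, a family that binds viral RNA and its partners. Ifit3 had a lowest, median and highest value of -0.78, -0.66 and 0.01 in the knockout, against -2.23, -0.65, -1.03, -1.02 and -1.01 in WT 3, WT 5, WT 6, WT 7 and WT 8. KO 5 to KO 7 were the 3 highest arrays, and WT 3 lay far below the rest. The Ifit3 difference was 0.69 (SE 0.25, limma adjusted p = 0.200) and 0.43 without WT 3. Ifit2 was dim, well above background on 6 knockout and 4 wild-type arrays, and its difference was 0.088 (SE 0.28, limma adjusted p = 0.918). Its groups overlapped over most of their range, with knockout values between -4.10 and -2.34 and wild-type values between -3.96 and -2.86.

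Mx1 and Mx2 encode dynamin-like GTPases. In rat, Mx1 is a nuclear protein and Mx2 a cytoplasmic one. Mx1 had a lowest, median and highest value of -0.47, -0.33 and 0.84 in the knockout, against -1.18, -1.13, -0.51, -0.17 and 0.04 in WT 3, WT 5, WT 6, WT 7 and WT 8. The spread within each genotype, 0.52 and 0.55 (SD, knockout and wild type), was as wide as the Mx1 difference of 0.52 (SE 0.29, limma adjusted p = 0.399). The Mx2 probe at base 2505 had 3.64, 4.3 and 4.54 as lowest, median and highest in the knockout, and lay between 3.57 and 4.14 in the wild type. That Mx2 difference was 0.32 (SE 0.18, limma adjusted p = 0.395). The other Mx2 probe, at base 5735 of a predicted transcript variant, was well above background on 5 knockout and 3 wild-type arrays and differed by 0.32 (SE 0.39, limma adjusted p = 0.733).

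Rsad2 encodes viperin, an enzyme that makes a chain-terminating nucleotide against viral RNA synthesis. The Rsad2 probe at base 3522 lay between 2.75 and 3.70 in the knockout, against 1.92 in WT 3 and 3.04 to 3.51 in its 4 companions. The probe at base 2355 lay between -2.31 and -1.98 in the knockout, against -3.40 in WT 3 and -2.42 to -2.01 in the others. The differences were 0.17 (SE 0.25, limma adjusted p = 0.789) and 0.23 (SE 0.22, limma adjusted p = 0.637). Without WT 3 they turned to -0.098 and -0.019, so the positive sign of Rsad2 at both probes rested on that array.

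**Figure D2:**
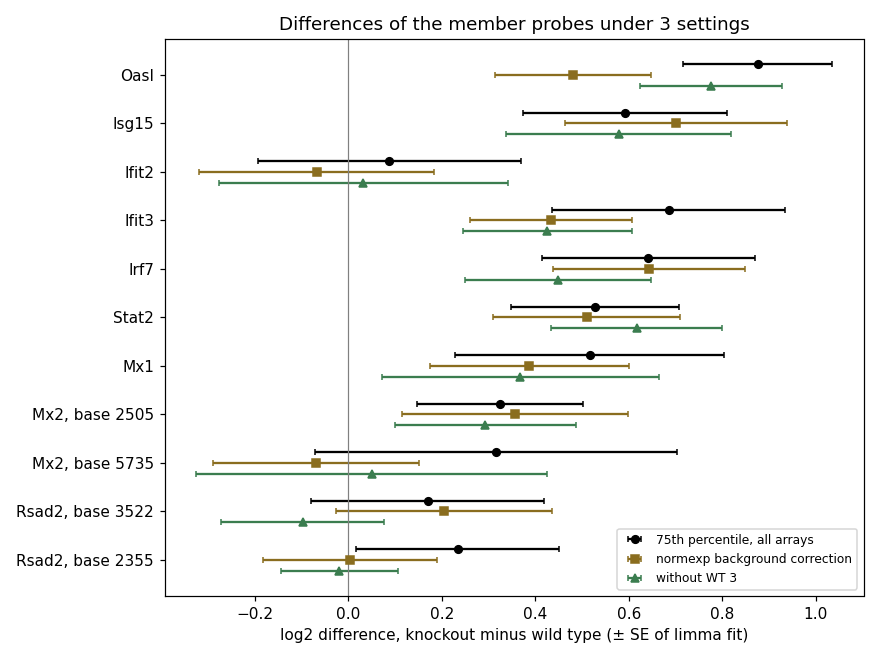
Log2 difference, knockout minus wild type, with its standard error from limma (x axis) for each member probe (rows). Circles show the 75th percentile scaling with all 12 arrays, squares normexp background correction and triangles the fit without WT 3. Oasl lies at 0.88, 0.48 and 0.78 under these settings, and the Rsad2 probes fall to about 0 without WT 3.

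WT 3 was the lowest of the 12 arrays at 7 of the 11 member probes, those of Oasl, Ifit3, Irf7 and Mx1, the Mx2 probe at base 5735 and both Rsad2 probes. Over all probes it was the lowest at 12.8%, while WT 5, WT 6, WT 7 and WT 8 were at 6.49%, 9.81%, 15.1% and 5.09%. At Stat2 it was the highest of the wild-type arrays. Without WT 3 the median difference of the member probes was 0.37, and 1 probe, that of Oasl, was called (adjusted p = 0.0195).

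The knockout cultures were not alike among themselves. KO 1 to KO 4 did not overlap with KO 5 to KO 7 at 8 of the 11 member probes, where 36.8% of all probes showed no overlap in either direction. This split follows the culture numbers but was noticed in these data, so it is a description with no test. Oasl, Isg15, Stat2 and the Mx2 probe at base 2505 were higher in KO 1 to KO 4, a direction that 16.8% of all probes showed. Isg15 averaged 3.0 in KO 5 to KO 7, beside 3.85 in KO 1 to KO 4. Irf7, Ifit2, Ifit3 and Mx1 were higher in KO 5 to KO 7, a direction that 20% of all probes showed. Irf7 averaged 3.17 in KO 5 to KO 7, beside 2.55 in KO 1 to KO 4. The 3 Vdac1 probes split in the same way, without overlap. Their means were 2.48, -1.97 and -2.31 in KO 1 to KO 4, beside 1.31, -2.90 and -3.46 in KO 5 to KO 7. KO 1 to KO 4 and KO 5 to KO 7 also lay mostly on different slides, KO 1 to KO 3 on slide 2 and KO 6 and KO 7 on slide 1. The part of the slide or of the Vdac1 level in the split was not tested. On slide 3, which held 1 array of each kind, KO 5 had 3.17 for Isg15 and 3.53 for Irf7, and KO 4 had 3.62 and 2.66.

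**Figure D3:**
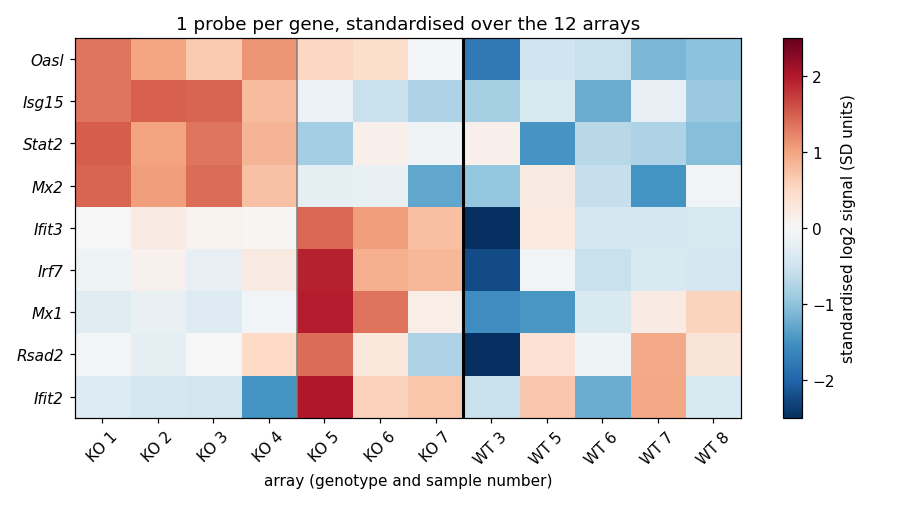
Log2 signal of 1 probe per member gene (rows; the brighter probe for Mx2 and Rsad2), standardised over the 12 arrays (columns, knockout at the left of the black line, wild type at the right). The grey line separates KO 1 to KO 4 and KO 5 to KO 7. Isg15, Stat2 and Mx2 are highest in KO 1 to KO 4, and Irf7, Ifit3, Mx1 and Ifit2 in KO 5. WT 3 is lowest for Oasl, Ifit3, Irf7, Mx1 and Rsad2.

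With numbers 1 to 4 against 5 to 8 as a block, the differences were 0.84 for Oasl, 0.91 for Irf7 and 0.98 for Ifit3. These 3 member probes passed the threshold in that fit, where 2.96% of all probes were called higher. The block was chosen from these data and numbers 1 to 4 hold WT 3 as their lone wild-type array, so the fit is a description and supports no call. Among numbers 5 to 8, from the same split, Irf7 differed by 0.80 and Oasl by 0.57, and the 1 member probe past the threshold was that of Irf7 (2.01% of all probes were called higher). Within slide 2 Isg15 differed by 0.88, Stat2 by 1.09 and Mx1 by 0.69. These 3 passed the threshold there, as did 6.17% of all probes on the higher side, but WT 5 is the lone wild-type array of that slide, so the fit holds no wild-type spread and assumes that of the knockout. Irf7 and Ifit3 differed by -0.0013 and -0.076 within slide 2. Within slides 1 and 3 Irf7 differed by 1.12 and 0.78 and Ifit3 by 1.33 and 0.64. Isg15 differed by 0.10 and 0.50 in those 2 slides, and Stat2 by 0.19 and 0.29. Within all 3 slides 4 of the 11 member probes were higher in the knockout (Oasl, Isg15, Stat2 and Mx1), as were 3651 of the 17871 probes tested.

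**Figure D4:**
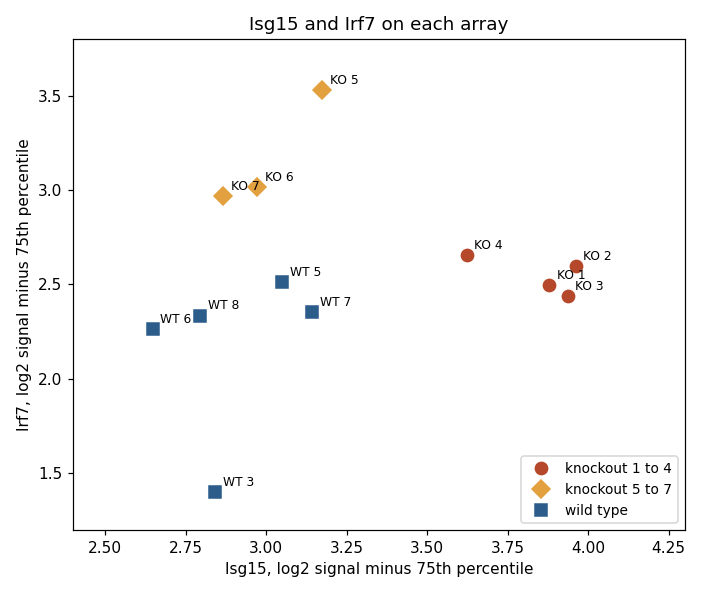
Isg15 (x axis) against Irf7 (y axis), both as log2 signal minus the array's 75th percentile, 1 point per array. KO 1 to KO 4 lie at the right with Isg15 between 3.62 and 3.96, KO 5 to KO 7 at the top with Irf7 between 2.97 and 3.53, and the wild-type arrays at the lower left, with WT 3 lowest for Irf7 at 1.40.

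The rest of the interferon pathway was read from the same fit in lists by role, chosen with earlier results of these data known. Their counts are therefore a description. Of the 114 probes tested over all lists, 5 were called higher and 1, of Vdac1, lower, against 0.705% and 0.448% of all probes. At unadjusted limma p under 0.05, 9.2% of all probes were higher and 6.63% lower. The ligands were near the detection limit. Of 12 probes for 9 ligand genes, 10 were well above background on no array, among them those of Ifnb1, Ifng and Il6. The 9 genes count Il6, a cytokine that is not an interferon. The 1 probe that was tested, for Ifna4, differed by 0.80 (SE 0.50, limma adjusted p = 0.461) with 4 knockout and 1 wild-type array well above background.

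Of 19 probes for sensors and adaptors 0 were called (unadjusted, 3 were higher and 1 lower at p under 0.05), and the median was 0.082. The smallest p was that of Ddx58, which encodes the RNA sensor RIG-I (0.61, limma adjusted p = 0.0677). Of 20 probes for receptors and JAK-STAT factors 0 were called (unadjusted, 5 were higher and 0 lower at p under 0.05), and the median was 0.16. The smallest p was that of Il10rb, a receptor chain of type III interferon and interleukin 10 signalling (0.54, limma adjusted p = 0.102).

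The other antiviral effectors held 4 of the called probes. Of 49 probes for 45 genes 4 were called higher and 0 lower, against 0.705% and 0.448% of all probes. At unadjusted limma p under 0.05, 16 were higher and 0 lower, against 9.2% and 6.63% of all probes. Positive differences were seen at 43, against 54.4% of all probes, and the median was 0.40. Ifi44, an interferon-induced gene with 2 probes, was called at both. The brighter Ifi44 probe had 0.75, 0.89 and 1.1 as lowest, median and highest in the knockout, against 0.03, 0.43, -0.26, -0.19 and 0.29 in WT 3, WT 5, WT 6, WT 7 and WT 8. All knockout arrays lay above all wild-type arrays, and KO 1 to KO 4 and KO 5 to KO 7 overlapped. The difference was 0.87 (SE 0.14, limma adjusted p = 0.0192) at this Ifi44 probe and 0.93 (SE 0.15, limma adjusted p = 0.0191) at the other. With normexp the Ifi44 differences were 0.74 (adjusted p = 0.0779) and 0.72 (adjusted p = 0.0445). Within slides 1, 2 and 3 the brighter probe differed by 0.83, 0.45 and 1.18. It passed without any 1 of the 12 arrays, and the other probe without any but WT 5 (adjusted p = 0.0570).

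Oas1a, an oligoadenylate synthetase that starts the degradation of viral RNA, was called at 1 probe (0.65, SE 0.15, limma adjusted p = 0.0499) and not at its other (0.51, limma adjusted p = 0.390). Rat has several close Oas1 copies, and which of them these probes read is uncertain. Tor3a, an interferon-responsive ATPase of the endoplasmic reticulum, differed by 0.86 (SE 0.19, limma adjusted p = 0.0494), but 3 of the 5 wild-type arrays showed it well above background, and with normexp the Tor3a difference was 0.20 (adjusted p = 0.925). With 1 of the 12 arrays left out in turn, the Oas1a call was lost in 10 fits and the Tor3a call in 11.

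The 3 probes for ISG15 conjugation, of the activating enzyme Uba7, the conjugating enzyme Ube2l6 and the deconjugase Usp18, were positive with a median of 0.60, and 0 were called (3 at unadjusted p under 0.05). Uba7 had the smallest p (0.93, limma adjusted p = 0.136). Among inhibitors of the pathway 1 of 12 probes was called, that of Ptpn6, which encodes the phosphatase SHP-1 (1.26, SE 0.26, limma adjusted p = 0.0404). At unadjusted limma p under 0.05, 3 inhibitor probes were higher and 1 lower. Ptpn6 had -2.21, -1.97 and -1.45 as lowest, median and highest in the knockout, against -2.02 in WT 3 and -3.72 to -3.25 elsewhere in the wild type. WT 3 lay within the knockout range, and with normexp the Ptpn6 difference was 0.47 (adjusted p = 0.501). The Ptpn6 call was lost in 11 of the 12 fits that leave out 1 array and kept without WT 3. On the route of VDAC1 and mitochondrial DNA release, 1 of 13 probes was called, that of Vdac1 itself, and the median was 0.017. At unadjusted limma p under 0.05, 1 probe of that route was higher and 3, those of Vdac1, lower. The median includes these 3 Vdac1 probes.

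**Figure D5:**
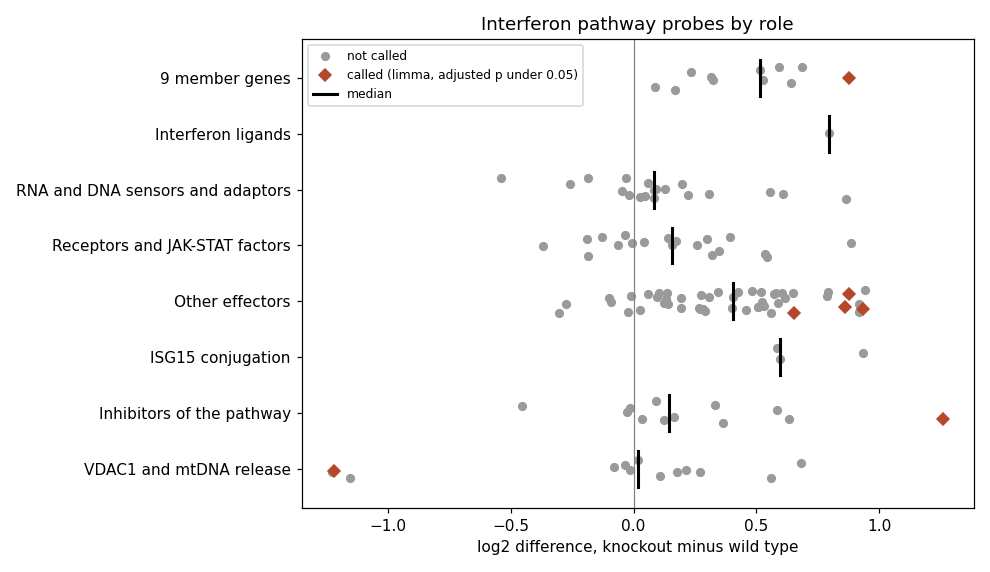
Log2 difference, knockout minus wild type (x axis), of each tested probe of the member genes and of the pathway lists (rows). Diamonds are probes called by limma and vertical bars the list medians. The members and the other effectors lie mostly right of 0, with medians of 0.52 and 0.40, and the sensors and the receptors around 0.082 and 0.16.

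Among 7835 other named genes well above background on all arrays, those whose pattern was most like the members' were Paqr8, Gbp5, Oas1a, Lcmt1, Oas1i and Ppp2ca. The measure was Pearson's r, over the 12 arrays, with the mean of the 9 members' standardised signals, and it ran between 0.94 for Paqr8 and 0.87 for Ppp2ca. The arrays share their genotype groups and scaling, so r is a description. That mean was between -0.061 and 0.89 in knockout arrays and between -1.45 and -0.25 in wild-type arrays, lowest in WT 3. Gbp5, an interferon-induced GTPase, differed by 0.79 (SE 0.19, limma adjusted p = 0.0677) and Paqr8, a membrane progestin receptor, by 0.46 (SE 0.13, limma adjusted p = 0.0922).

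The response element was looked for in the RefSeq promoters of build GRCr8, over the 250 bases before each gene's start, as GAAANNGAAA on either strand (TTTCNNTTTC when read on the gene's strand). The table held promoters of 6 members: Oasl, Ifit3, Irf7, Stat2, Mx1 and Rsad2. The letters occurred in 3 of them, and in 3.41% of all 33469 promoters. The 3 matches are shown with 20 bases on each side, since they are the sequence feature that STAT2 and IRF proteins are known to bind, and capitals mark the match.
Ifit3: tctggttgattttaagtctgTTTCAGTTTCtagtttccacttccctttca
Irf7: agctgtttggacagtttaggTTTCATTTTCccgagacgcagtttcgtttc
Rsad2: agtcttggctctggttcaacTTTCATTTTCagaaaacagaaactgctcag
They lie at chr1:241527262-241527311 (plus strand), chr1:205800063-205800112 (minus) and chr6:48788238-48788287 (minus), and the matches begin 44, 69 and 147 bases before the start of their genes. A match is not a measured binding site, and its lack in the other windows says only that these letters are not there.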

How the data were processed

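RNA of 12 N27 cultures was hybridised to 1-colour Agilent arrays. In the deposited scanner files each spot has a linear intensity, read with Agilent Feature Extraction, version 10.7 per the submitters' processing notes and 10.1.1.1 per the file headers, after detrending and with substitutes for low signals per the file headers. Other columns are yes-or-no flags per the file headers. The deposited value table holds log2 values, quantile normalized per the labels' titles, with a median of 3.06 in every column. It was used as an alternative, since its columns correlated with the scanner signal of the same array (Spearman 0.998 across probes).

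Per array, 58717 spots other than controls were read. Spots flagged as uneven or as outliers were left out, spots of 1 probe were averaged as log2, and the 75th percentile of the array was taken off. 0 spots were saturated. Groups came from the sample titles. Genotypes were compared two-sided, without covariates, by lmFit and eBayes of limma 3.58.1 (R 4.3.3) and Benjamini-Hochberg adjustment over 17871 probes. The procedure was also run on simulated data, drawn independently for each probe and array. These held no effect of slide or culture number, so they say nothing about such effects in the real arrays. The number of arrays limits the precision.

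Names are those of the array's design, and 21109 probes were also named by accession, 6684 by symbol and 424 by synonym in the RefSeq table of GRCr8. Named were all member probes, Vdac1, up to 4 called probes per pathway list or else that with the smallest p, and the 6 most alike genes. The members, the lists and the split by culture number were chosen with earlier results of these data known. The numbers that both genotypes share (3, 5, 6 and 7) did not pair the cultures. Alternatives covered background, scaling, filters, slides, culture numbers and arrays left out.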

Additional observations from a re-analysis of the deposited data

Results flagged for a closer look

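WT 3 stood apart from the other 4 wild-type arrays at 2 member probes, by a gap of more than Dixon's critical limit for 5 values. Its log2 signal relative to the 75th percentile was -2.23 for Ifit3 and 1.40 for Irf7, and the gap to the next array was 0.762 and 0.776 of the whole wild-type range. These are 2 of 22 groups of arrays looked at (11 probes in 2 genotypes), and chance flags about 1 in 20. No knockout array stood apart in this way at any member probe.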

How the results depend on the processing

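Over all probes, with 126 higher and 80 lower, limma called 21 and 10 with normexp, 67 higher under quantile normalization, 75 higher with the percentile over probes detected on all arrays, 64 higher in the deposited value table, and 201 and 130 with the stricter filter. It called 0 and 0 without the filter (1318 and 1116 at unadjusted p under 0.05), 286 and 188 with the slides blocked, and 0 and 0 in slides 1 (1182 and 958 unadjusted) and 3 (516 and 445). It called 1102 and 1060 within slide 2, 529 and 385 with the culture numbers as a block and 360 and 392 among numbers 5 to 8. Leaving out 1 array gave 13 (without WT 5) to 441 (without WT 3) higher and 4 (without WT 8) to 332 (without WT 3) lower. Of the member probes, with 1 higher, limma called 0 with normexp, without the filter and within slides 1 and 3, 3 within slide 2, 3 with the culture numbers as a block, and 0 to 1 with an array left out, and called 0 lower in every fit. Their median of 0.52 was -0.0013 within slide 2, 0.29 among numbers 5 to 8 and 0.36 to 0.54 with an array left out. Within the pathway lists, with 5 higher and 1 lower, the counts were 1 and 0 with normexp, 3 higher under quantile normalization, 3 and 2 with the percentile over detected probes, 0 and 0 without the filter, 8 and 2 with the stricter filter, 3 and 0 with 1 probe per gene, 9 and 3 with the slides blocked, 0 and 0 in slides 1 and 3, 9 and 4 within slide 2, 15 and 3 with the culture numbers as a block, 3 lower among numbers 5 to 8 and 3 and 0 with brightness as a covariate. With an array left out they were 1 to 8 higher and 0 to 1 lower.

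The brightest Vdac1 probe (-1.23) passed under quantile normalization (-1.33), with the percentile over detected probes (-1.27), in the deposited table (-1.35), with the stricter filter (-1.23), with slide (-1.38) or the culture numbers (-1.58) as a block and among numbers 5 to 8 (-1.80), and it lay between -1.34 and -1.10 with an array left out. Member differences that turned negative, none of them called, were those of Ifit2 with normexp (-0.068), within slide 2 (-0.55), without KO 5 (-0.073) and without WT 6 (-0.054). With 1 array left out, Ifit2 lay between -0.073 and 0.22, and the Rsad2 probes between -0.098 and 0.30 and between -0.019 and 0.33. The Mx2 probe at base 5735 turned with normexp (-0.069) and within slide 2 (-0.12), and that at base 2505 within slide 1 (-0.074) and among numbers 5 to 8 (-0.032). Rsad2 turned within slide 2 (-0.20 and -0.15), among numbers 5 to 8 (-0.039 and -0.065) and without WT 3 (-0.098 and -0.019), Irf7 (-0.0013) and Ifit3 (-0.076) within slide 2, and Ifna4 within slide 3 (-0.17). Where a cause is not named, the cause was not tested.

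With the culture number as a replicate block, which rests on 4 numbers, limma called 0 higher and 0 lower over all probes (1076 and 772 at unadjusted p under 0.05), 0 member probes and 0 and 0 pathway probes, and Oasl differed by 0.71 (adjusted p = 0.355). Deviations of same-numbered cultures from their group means correlated at 0.44, -0.12, 0.067 and 0.050 for numbers 3, 5, 6 and 7. WT 3 was the best wild-type match of KO 3, but KO 1 was the best knockout match of WT 3. No pair were each other's best match, and the numbers were not taken as pairs. Such correlations cannot exclude that the cultures were paired. The array's dim range limits Ifit2, the Mx2 probe at base 5735, Uba7, Tor3a and the ligands, whose signal lay close to background.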
